A study of Mus musculus with 6 samples.

Results

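The DNA replication genes considered here are 31 genes chosen by symbol. They comprise 8 genes of origin licensing, 4 of helicase activation, 7 of synthesis at the fork, 5 of nucleotide supply, 4 of G1/S control and 3 of S phase chromatin. All 31 were found among the 51826 gene symbols counted, and all 31 passed the filter on low counts, which left 13873 genes for testing. Total RNA was sequenced from sorted mammary basal cells of pubertal C57B6/N mice with the genotype SMAcreERT2/N1ICD. Such mice make a tamoxifen-dependent Cre from smooth muscle actin regulatory sequence and carry N1ICD, the active inner portion of the Notch1 receptor. A smooth muscle actin promoter is active in mammary myoepithelial cells and also in the smooth muscle of blood vessels. Tamoxifen was given once, on postnatal day 21, and the glands were taken at day 24, after 72 hours. Each of 3 pools of 2 to 3 mice was split by sorting into a GFP-positive fraction, here GFPpos, and a GFP-negative fraction, here GFPneg, which gave 3 libraries per group and 6 in all. Both groups carry the alleles and received tamoxifen. The labels do not state what GFP reports, and GFP-positive cells lacking the Notch allele were not analysed here. The series title asks which transcriptional changes accompany the fate switch that Notch activation induces, and the comparison asks whether the genes that copy DNA differ between the sorted fractions.

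Replication begins in G1, when the origin recognition complex, Cdc6 and Cdt1 load the ring of Mcm2 to Mcm7 onto origins. At S phase entry cyclin E and its kinase relieve RB proteins from E2F transcription factors, the ring is joined by Cdc45 and the GINS complex, and the fork is copied by primase, polymerases, the sliding clamp and its loader. Many genes of this machinery are known E2F targets, and their mRNAs are commonly read as signs of cycling cells. In the pubertal mammary gland both basal and luminal cells divide as the ducts grow.

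Since many genes of this machinery are known E2F targets, the members' starts were searched for E2F sites. The matches are shown to let the shared letters be seen. Promoter windows of 250 bases before to 50 bases after a start were found for 27 of the 31 genes (not Mcm4, Gins1, Gins2 and Ccne2) in RefSeq (build GRCm38.p6, the same assembly as mm10). The strings TTTGGCGC, TTTGGCGG, TTTCCCGC and TTTCCCGG were searched on both strands. A match was present for 10 of these 27 genes (37.0%), against 3.79% of all 27025 genes with a window of the same length. The 10 genes were Mcm3, Mcm5, Mcm6, Mcm7, Cdc6, Cdt1, Rfc3, Pola1, E2f2 and Chaf1a. Only windows at RefSeq starts were searched, and another annotation can place a start elsewhere. For Dut the 250 bases searched (chromosome 2, 125247265 to 125247514) lie after the gene's start in GENCODE. A site before that start would not be found. The CCAAT box (CCAAT, both strands) was present for 66.7% of the members' genes and 41.1% of all genes, and the cell cycle homology element (TTTGAA or TTTAAA, both strands) for 33.3% and 30.6%. A match is a description of the letters, and binding was not measured. The 250 bases before the start of Mcm6 hold a pair of identical matches. They are given below on the gene's strand with the matches in capitals, followed by 30-base windows around 1 match in each of 5 other members, read 5′ to 3′ on the strand of the gene. A match on the other strand appears as its reverse complement. The match in Chaf1a lies 44 bases before its start, that in Mcm5 149 and that in Pola1 138, while those in Cdt1 and Mcm3 begin 33 and 20 bases into the transcript.
Mcm6 (chr1:128359706-128359955, minus strand): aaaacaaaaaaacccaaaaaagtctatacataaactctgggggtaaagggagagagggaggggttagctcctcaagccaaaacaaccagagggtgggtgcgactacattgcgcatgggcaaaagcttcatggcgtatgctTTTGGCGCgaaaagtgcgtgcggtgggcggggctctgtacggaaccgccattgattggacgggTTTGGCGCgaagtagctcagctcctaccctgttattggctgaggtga
Mcm5 (chr8:75109349-75109378, plus strand): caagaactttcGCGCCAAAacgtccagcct
Pola1 (chrX:93632275-93632304, minus strand): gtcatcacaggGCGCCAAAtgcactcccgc
Chaf1a (chr17:56040361-56040390, plus strand): tgccgcggttcCCGCCAAAtacgagcgcgg
Cdt1 (chr8:122568035-122568064, plus strand): gggaactaccttTTTGGCGCcatggcgcaa
Mcm3 (chr1:20820275-20820304, minus strand): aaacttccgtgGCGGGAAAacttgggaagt

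The libraries were unequal, and 1 of them limits every comparison. GFPneg replicate 1 held 611465 gene counts, of which 69.2% lay in 5 abundant noncoding features. The other 5 libraries held 9912610 to 16043492 counts, with 22.7% to 34.7% in those features. The rows for reads outside any feature held 66.4% of the total in GFPneg replicate 1 and 28.8% to 40.5% elsewhere. The members together had 168 counts in GFPneg replicate 1, against 4920 to 18363 in the other libraries. In that library 19 of the 31 members were at 0, 5 had 1 to 4 counts and 7 had 10 or more, and 49.8% of all genes tested were also at 0 there. A count of 0 there allows up to 9.84 CPM (3 counts; CPM is the count scaled to the TMM-adjusted library size), for counting error only. The TMM factor of GFPneg replicate 1 was 0.501, against 1.05 to 1.22 in the other libraries. High CPM values in that library therefore rest on this factor as well as on few counts. Results are also given without that library, and a GFPpos level above a 0 in replicate 1 is weak evidence of a difference. Notch1, whose inner portion the allele carries, stood at 105 (32 counts), 177 and 267 CPM in GFPneg replicates 1, 2 and 3. It stood at 506, 459 and 423 CPM in the GFPpos replicates, with no overlap. Counts by gene symbol do not separate the allele from the native gene. The basal keratin genes Krt5 (713 to 1734 CPM) and Krt14 (796 to 1954 CPM) and the basal transcription factor gene Trp63 (118 to 302 CPM) were present in all 6 libraries.

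Most replication genes had higher levels in GFPpos cells, but no single gene passed the test over all genes. Summed over the members, expression came to 551, 684 and 448 CPM in GFPneg replicates 1, 2 and 3 and 1084, 1112 and 953 CPM in GFPpos replicates 1, 2 and 3, so that the groups did not overlap. Of the 31 members, 27 had a positive log2 fold change (57.5% of all genes tested did), with a median of 1.18 against 0.15 over all genes tested. In edgeR's quasi-likelihood test with the 6 libraries, 0 members were higher and 0 lower at an adjusted p below 0.05, where 0.0577% of genes tested were called higher and 0.00721% lower. The lowest adjusted p was 0.804, for Mcm3. At an unadjusted p below 0.05, 2 members (Mcm3 and Mcm6) were higher, against 2.38% of all genes. DESeq2 and limma-voom also called 0 members. In bulk RNA, a larger share of cycling cells and more of these mRNAs per cell cannot be told apart.

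**Figure D1:**
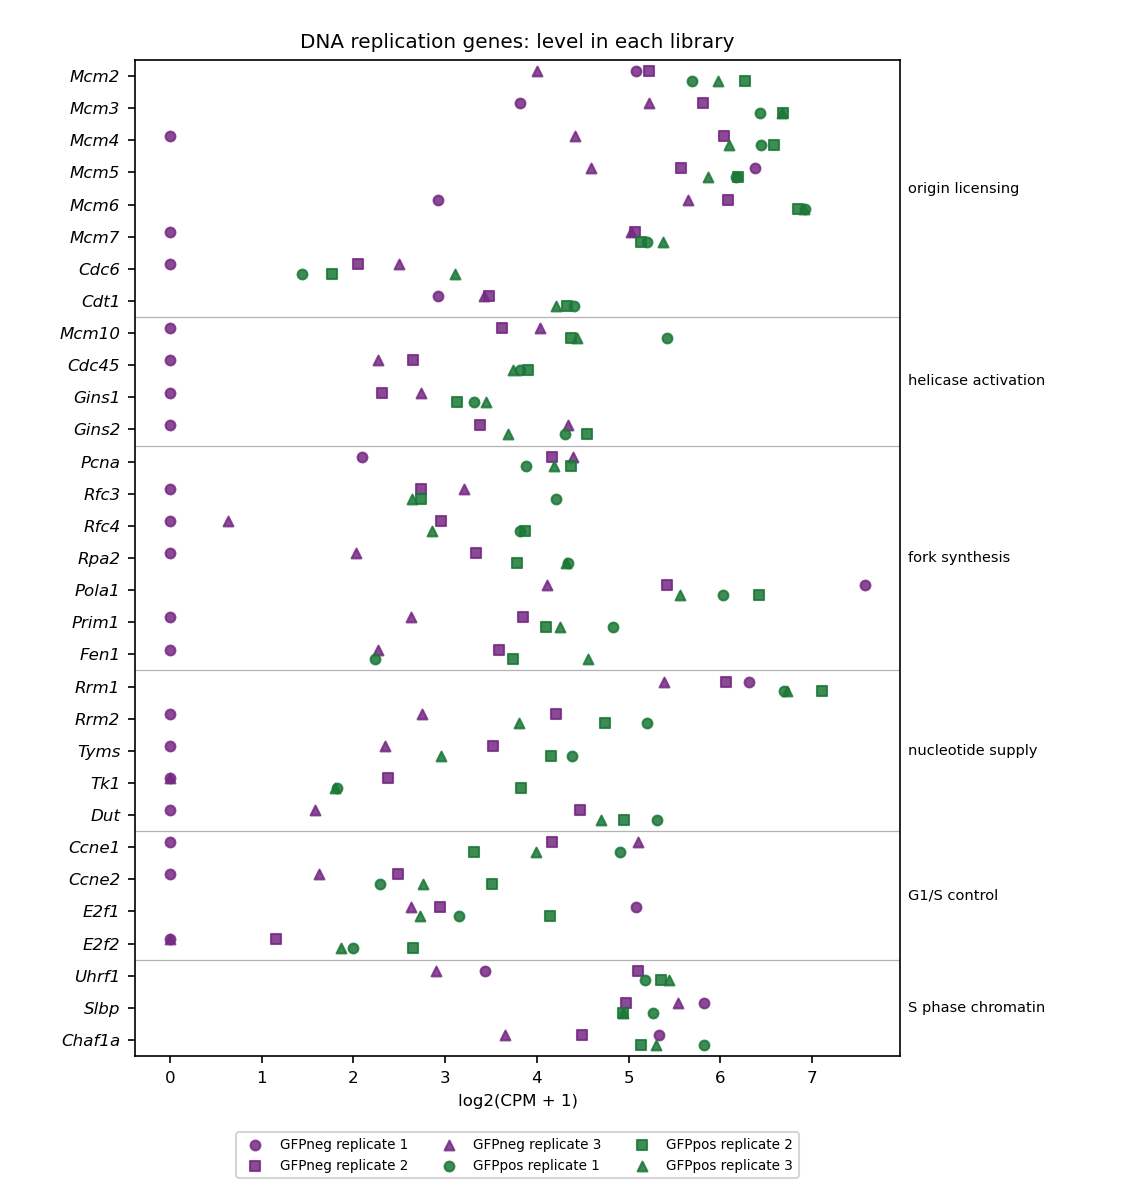
Level of each DNA replication gene in each of the 6 libraries, as log2(CPM + 1) on the horizontal axis, with genes grouped by role on the vertical axis. Green symbols are GFPpos and purple symbols GFPneg libraries, and the shape gives the replicate. Green symbols lie to the right of all purple ones for 15 of 31 genes, and GFPneg replicate 1 (purple circles) is at 0 for 19.

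Separation of the individual genes was counted next. For 15 of 31 members each GFPpos library stood above each GFPneg library, against 9.53% of all genes tested, and for 0 members each stood below (3.63% of all genes). Of the 19 members at 0 in GFPneg replicate 1, none could have stood below it. In 13 of them GFPpos replicate 1 was above the 9.84 CPM that a 0 there allows. For the others, the direction in replicate 1 cannot be judged. Separation from that library needs every GFPpos library above the bound, and this was not counted. Rfc3, Rfc4 and Ccne1 were above it in GFPpos replicate 1 and below it in another GFPpos library. Some of the 15, such as Gins1 and E2f2, had GFPpos levels below it, so the 15 rest in part on a 0 in GFPneg replicate 1. A higher CPM in GFPpos cells of all 3 pairs was found for 22 members (21.5% of all genes). In pairs 2 and 3 alone, where both libraries were deep, 25 members were higher in both (29.1% of all genes) and 2, Ccne1 and Slbp, were lower in both (29.6% of all genes). The other 4, Cdc6, Gins2, Pcna and Rfc3, differed in direction between these pairs. The 95% interval of the within-pair ratio, which covers counting error only, lay above 1 for 23 members in pair 2 (31.1% of all genes tested) and for 25 in pair 3 (42% of all genes), where Tk1 and E2f2 count through their lower bounds. It lay above 1 in both pairs for 21 members (17.5% of all genes). It lay below 1 for 1 member in pair 2, Ccne1 (33.7% of all genes), and for 4 in pair 3, Ccne1, Slbp, Gins2 and Rfc3 (38.7% of all genes).

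**Figure D2:**
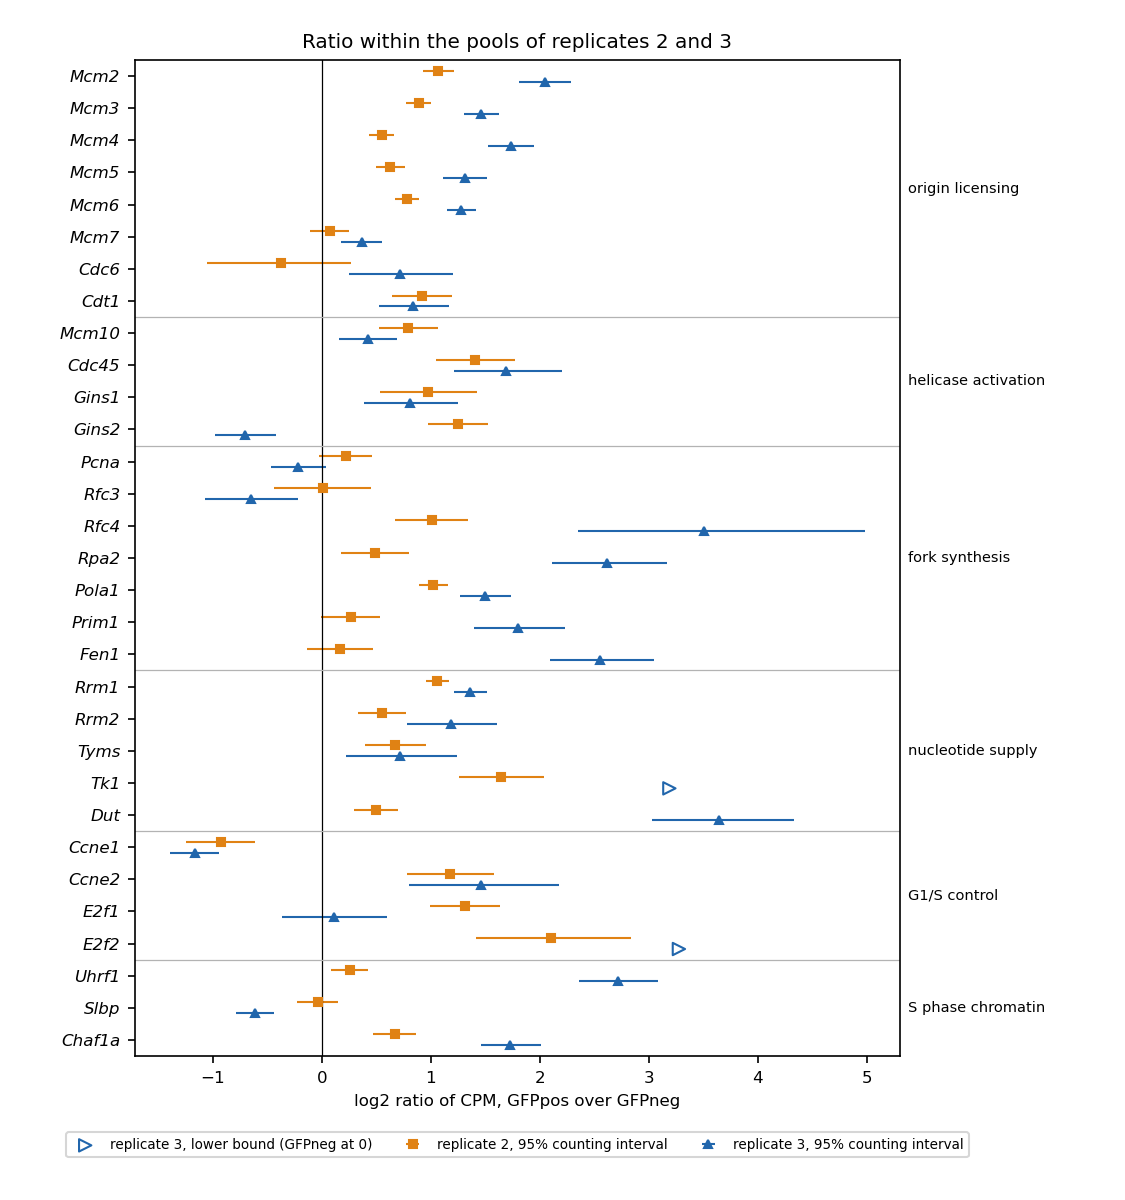
Log2 ratio of CPM, GFPpos over GFPneg, within the pools of replicate 2 (squares) and replicate 3 (triangles), with genes grouped by role. Bars are exact 95% intervals for counting error only, and open arrowheads are lower bounds where GFPneg replicate 3 had 0 counts. Most symbols lie right of 0, those of replicate 3 often further, and both symbols of Ccne1 lie left of it.

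The licensing genes held the 2 members with an unadjusted p below 0.05 in edgeR's test with the 6 libraries, Mcm3 and Mcm6. Mcm2 to Mcm7 encode the subunits of the helicase ring. Mcm3 (chromosome 1, 20802968 to 20820312, mm10) stood at 13.1, 55.0 and 36.4 CPM in GFPneg replicates 1, 2 and 3 and at 85.3, 102 and 101 CPM in the GFPpos replicates. Each GFPpos library was above each GFPneg one, and the log2 fold change was 1.38 (SE 0.53, adjusted p = 0.804 in edgeR's test). Mcm6 (chromosome 1, 128331590 to 128359664), whose start carries the 2 E2F matches shown, stood at 6.56, 66.6 and 49.1 CPM in GFPneg and 121, 114 and 119 CPM in GFPpos cells. The GFPpos values lay close together, the groups did not overlap, and the log2 fold change was 1.43 (SE 0.57, adjusted p = 0.839).

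Mcm2 (chromosome 6, 88883474 to 88898780) stood at 32.8, 36.3 and 15.03 CPM in GFPneg and 50.7, 76.3 and 62.0 CPM in GFPpos cells, again without overlap (log2 fold change 1.19, SE 0.57, adjusted p = 0.981 in edgeR's test). Mcm4 (chromosome 16, 15623897 to 15637400) stood at 0, 65.0 and 20.3 CPM against 86.0, 95.1 and 67.5 CPM, with 67.5 CPM in GFPpos replicate 3 just above 65.0 CPM in GFPneg replicate 2. Mcm5 overlapped, since GFPneg replicate 1 was highest of all at 82.0 CPM, from 25 counts. Pairs 2 and 3 gave 46.5 against 71.9 CPM and 23.1 against 57.4 CPM. The log2 fold change of Mcm5 was 0.47, and 0.87 when scaled by library size only. Mcm7 was the ring gene with the smallest ratios in pairs 2 and 3. In replicates 2 and 3 it stood at 32.5 and 31.5 CPM in GFPneg and at 34.2 and 40.6 CPM in GFPpos cells, ratios of 1.05 (95% interval 0.93 to 1.19) and 1.29 (1.13 to 1.47). Reads of Mcm7 share their locus with other genes, which is taken up below.

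The loaders of the ring differed in how far the groups separated. Cdt1, which delivers the ring to origins, stood at 6.56, 10.1 and 9.75 CPM in GFPneg and 20.2, 19.1 and 17.4 CPM in GFPpos cells, without overlap (log2 fold change 1.04, SE 0.77). Cdc6, the other loader, was among the lowest members, with 0 to 4.65 CPM in GFPneg and 1.72 to 7.63 CPM in GFPpos libraries. The Cdc6 groups overlapped, and its log2 fold change of 0.33 (SE 1.28) became -0.56 without GFPpos replicate 3.

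Per kilobase of annotated exon, 4 of the 6 ring genes had the highest levels of all members in GFPpos cells. Mcm3 stood at 25.6 ± 2.44 CPM per kb (SD, n = 3), Mcm6 at 25.3 ± 0.702, Mcm4 at 23.1 ± 3.92 and Mcm5 at 16.7 ± 2.03 CPM per kb. The levels of Mcm3, Mcm6 and Mcm4 differed by less than the SD of Mcm4. Mcm2 (9.06 ± 1.84) and Mcm7 (8.33 ± 0.749 CPM per kb) lay below Dut (13.0 ± 2.88) and Rrm1 (10.4 ± 1.74 CPM per kb) and did not differ from each other beyond their spread. At the lower end were E2f2 (0.746 ± 0.294), Cdc6 (0.750 ± 0.618), Tk1 (1.17 ± 1.18) and Ccne2 (1.92 ± 0.962 CPM per kb). The length used is the union of all annotated exons, which overstates the mRNA of genes with many annotated isoforms.

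Genes that turn the loaded ring into a moving helicase had positive log2 fold changes in 4 of 4 cases. Cdc45, a subunit of the active helicase, stood at 0, 5.29 and 3.83 CPM in GFPneg and 13.1, 14.01 and 12.4 CPM in GFPpos cells. Its groups did not overlap, and the pair ratios were 2.65 (95% interval 2.07 to 3.41) in replicate 2 and 3.23 (2.32 to 4.60) in replicate 3. Gins1, a GINS subunit, ranged from 0 to 5.65 CPM in GFPneg and 7.78 to 9.91 CPM in GFPpos libraries. Mcm10, which helps to activate the helicase, ranged from 0 to 15.4 CPM in GFPneg and 19.7 to 41.8 CPM in GFPpos libraries. Neither Gins1 nor Mcm10 overlapped between groups, though GFPpos levels of Gins1 reached below the 9.84 CPM that the 0 in GFPneg replicate 1 allows. Gins2, another GINS subunit, went both ways, at 9.45 against 22.4 CPM in pair 2 and 19.3 against 11.9 CPM in pair 3.

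Genes acting at the fork gave mixed values. Pola1 (chromosome X, 93304767 to 93632155), the catalytic subunit of the polymerase that starts each new strand, stood at 190, 41.8 and 16.3 CPM in GFPneg and 64.1, 84.8 and 46.1 CPM in GFPpos cells. The value of 190 CPM came from 58 of the 168 member counts in GFPneg replicate 1 and was the highest of the 6. With it the log2 fold change was -0.24 (SE 0.70), and without that library it was 1.17. Prim1, the primase subunit that lays the RNA primer, stood at 0, 13.4 and 5.19 CPM in GFPneg and 27.5, 16.1 and 18.1 CPM in GFPpos cells, without overlap.

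Rpa2, a subunit of the protein that coats single-stranded DNA, stood at 0, 9.09 and 3.10 CPM in GFPneg and 19.3, 12.8 and 19.0 CPM in GFPpos cells, also without overlap. The clamp loader gene Rfc4 stood at 0, 6.78 and 0.547 CPM against 13.0, 13.6 and 6.23 CPM. Its ratio in replicate 3 was 11.4 (95% interval 5.08 to 31.7), from 6 GFPneg counts. The other loader gene, Rfc3, stood at 0, 5.65 and 8.20 CPM against 17.5, 5.68 and 5.24 CPM. Only in replicate 1 was its GFPpos value more than slightly higher, over a GFPneg 0 that allows up to 9.84 CPM.

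Pcna, which encodes the sliding clamp, was close to equal in the deep pairs, at 16.9 against 19.7 CPM and 20.04 against 17.2 CPM. The ratios were 1.17 (0.99 to 1.38) and 0.86 (0.72 to 1.02). Its log2 fold change of 0.21 (SE 0.78) became -0.11 without GFPneg replicate 1. Fen1, the nuclease that trims Okazaki fragments, was nearly equal in pair 2 (10.99 against 12.4 CPM) and far apart in pair 3 (3.83 against 22.5 CPM).

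All 5 genes of nucleotide supply had a higher CPM in GFPpos cells of each pair (21.5% of all genes tested did). In replicate 1 the direction rests on a 0 in GFPneg for Dut, Rrm2, Tyms and Tk1, and a 0 there allows up to 9.84 CPM. For Tk1 the GFPpos level in replicate 1 lay below that bound, so that its direction there cannot be judged. Rrm1 (chromosome 7, 102441695 to 102469771), the large subunit of ribonucleotide reductase, was the member with the smallest SE, at 78.7, 65.7 and 40.7 CPM in GFPneg and 103, 137 and 105 CPM in GFPpos cells. Its groups did not overlap (log2 fold change 0.92, SE 0.46, adjusted p = 0.994 in edgeR's test). Dut (chromosome 2, 125247190 to 125258608), which keeps uracil out of DNA, stood at 0, 21.3 and 2.00 CPM against 38.8, 29.96 and 25.1 CPM. It did not overlap either, although its ratio differed between pairs, 1.41 (1.22 to 1.62) in replicate 2 and 12.5 (8.17 to 20.1) in replicate 3.

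Rrm2, the small subunit of the reductase, stood at 0, 17.6 and 5.74 CPM in GFPneg and 35.8, 25.8 and 13.0 CPM in GFPpos cells, and GFPpos replicate 3 fell within the GFPneg range. Tyms, the thymidylate synthase gene, likewise overlapped, at 0 to 10.5 CPM against 6.75 to 19.9 CPM. Tk1, which salvages thymidine, had 0 counts in GFPneg replicates 1 and 3, 4.21 CPM in GFPneg replicate 2, and 2.54, 13.1 and 2.49 CPM in GFPpos cells. Its replicate 3 ratio was at least 9.12 (3 counts taken for the 0), and GFPneg replicate 2 stood above 2 of the 3 GFPpos libraries.

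The G1/S regulators differed in direction. Ccne1, a gene of cyclin E, stood at 0, 16.99 and 33.4 CPM in GFPneg and 28.99, 8.95 and 14.9 CPM in GFPpos cells. In both deep pairs it was lower in GFPpos cells, with ratios of 0.53 (0.42 to 0.65) and 0.45 (0.38 to 0.52), and in replicate 1 the GFPneg library had no count. Its log2 fold change of -0.08 (SE 0.90) was -0.50 without GFPneg replicate 1, 0.27 without GFPpos replicate 2, 0.73 without GFPneg replicate 3 and 0.06 without GFPpos replicate 3. Ccne2, the other cyclin E gene, went the opposite way in the deep pairs, at 4.62 against 10.4 CPM and 2.10 against 5.76 CPM, ratios of 2.26 (1.71 to 2.98) and 2.75 (1.74 to 4.52).

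Of the E2F activators, E2f2 stood at 0, 1.23 and 0 CPM in GFPneg and 2.99, 5.29 and 2.65 CPM in GFPpos cells. Each GFPpos library was above each GFPneg one. Every GFPpos value lay below the 9.84 CPM that a 0 in GFPneg replicate 1 allows, so separation from that library cannot be judged. The replicate 3 ratio was at least 9.69. E2f2 has the largest SE of all members (1.70, for a log2 fold change of 2.64). E2f1 stood at 32.8, 6.72 and 5.19 CPM against 7.88, 16.7 and 5.61 CPM, the first value resting on 10 counts. Its log2 fold change was -0.34 (SE 0.98) and 0.77 without GFPneg replicate 1.

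Among the genes that act on chromatin as it is copied, Slbp stood apart. Slbp encodes the protein that binds the stem-loop of histone mRNAs, and it stood at 55.7, 30.4 and 45.6 CPM in GFPneg and 37.6, 29.6 and 29.7 CPM in GFPpos cells. It was the 1 member that was lower in GFPpos cells of all 3 pairs, with a ratio of 0.98 (0.86 to 1.11) in replicate 2 and 0.65 (0.58 to 0.74) in replicate 3, and its log2 fold change of -0.41 (SE 0.57, adjusted p = 1.00) did not pass edgeR's test. Uhrf1, which guides maintenance methylation to new DNA, stood at 9.84, 33.3 and 6.47 CPM against 35.2, 39.8 and 42.5 CPM, without overlap. Chaf1a, a subunit of the histone chaperone at the fork, overlapped through GFPneg replicate 1, at 39.3, 21.6 and 11.6 CPM against 55.5, 34.2 and 38.4 CPM.

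Both fractions of a replicate came from 1 pool, so the replicate number was also fitted as a block. With the block and all 6 libraries edgeR called 0 members (0.31% of all genes were called higher), and the lowest adjusted p was 0.494, for Mcm6. The block without both libraries of replicate 1 called 6 of 31 members higher and 0 lower, where 2.52% of 15346 genes were called higher and 1.41% lower. The 6 were Mcm2 (log2 fold change 1.57, SE 0.40, adjusted p = 0.00394), Mcm3 (1.20, SE 0.35, adjusted p = 0.0219), Mcm4 (1.15, SE 0.37, adjusted p = 0.0476), Pola1 (1.28, SE 0.39, adjusted p = 0.0341), Rrm1 (1.23, SE 0.34, adjusted p = 0.0121) and Dut (2.00, SE 0.65, adjusted p = 0.0486). Mcm6 (adjusted p = 0.0534) and Uhrf1 (adjusted p = 0.0737) came next. This fit rests on 2 pairs, was chosen with the shallow library known, and leaves 1 residual degree of freedom per gene, so that its p-values lean on the spread pooled over genes. Without GFPneg replicate 1 and with no block, 0 members passed (lowest adjusted p = 0.168, for Mcm6), although 28 of 31 were positive against 52% of all genes.

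**Figure D3:**
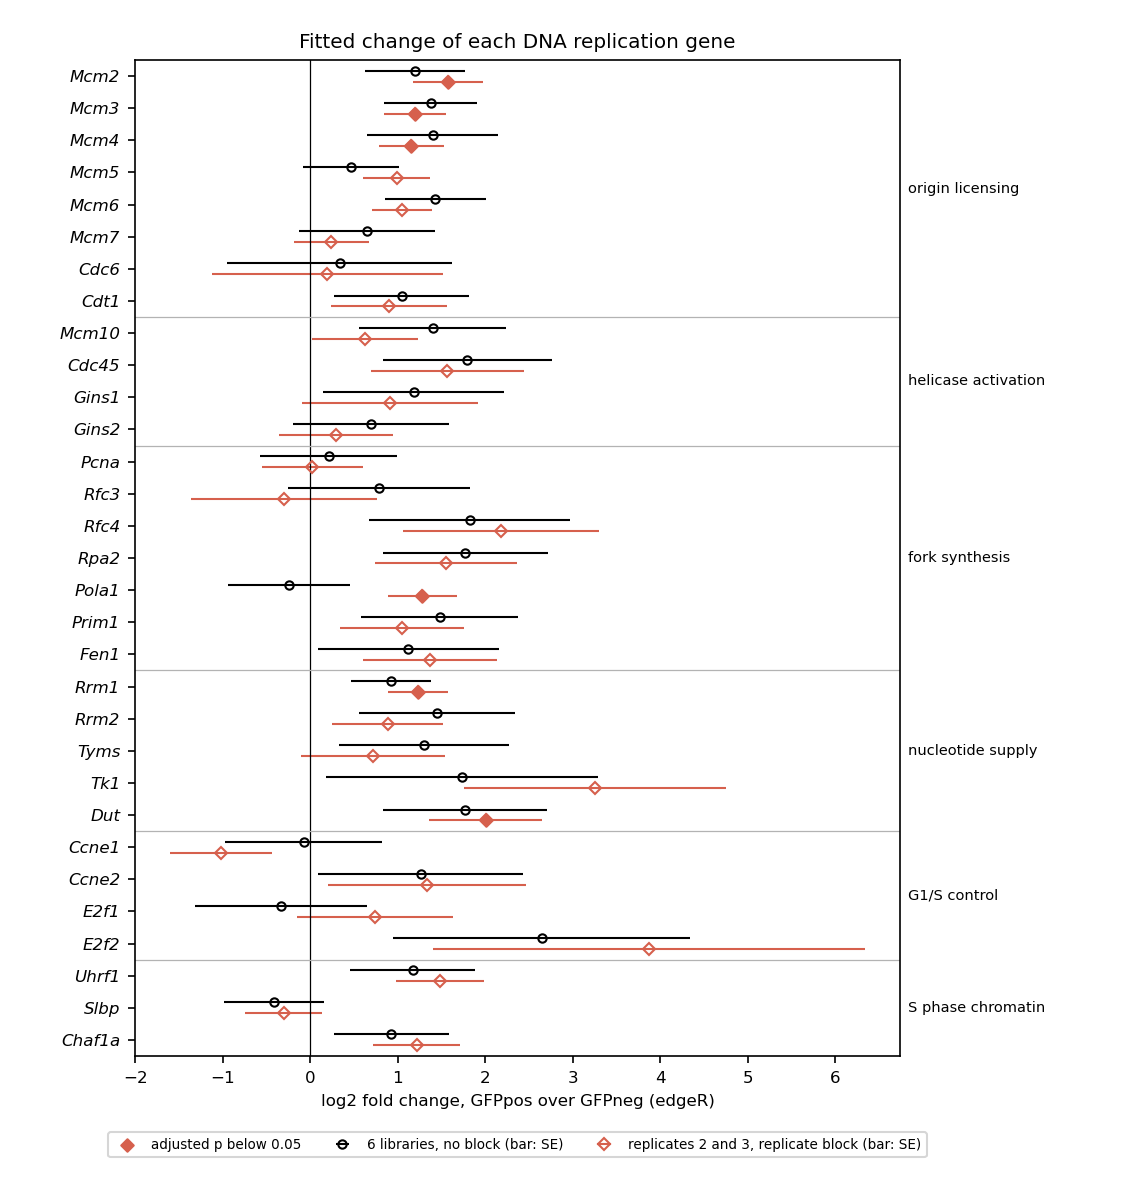
Fitted log2 fold change (GFPpos over GFPneg) of each DNA replication gene with its SE, for the 6 libraries without a block (black circles) and for replicates 2 and 3 with the replicate block (red diamonds). Filled diamonds mark adjusted p below 0.05. No circle is filled, 6 diamonds are, and Pola1 lies left of 0 with the 6 libraries and right of it with the 2 pairs.

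Other genes of the replication machinery gave values like those of the members. Of 64 further genes for licensing, firing, fork synthesis, nucleotide supply and chromatin copying, 57 had positive log2 fold changes (57.5% of all genes tested did). The median of the 64 was 0.94, against 0.15 over all genes tested. In edgeR's test 0 were higher and 0 lower (0.0577% and 0.00721% of all genes tested were). At an unadjusted p below 0.05 in that test, 6 were higher (2.38% of all genes tested) and 1 lower (400 of 13873 genes tested). DESeq2 and limma-voom called 0 higher. The 6 with the smallest p were the methyltransferase gene Dnmt1, the polymerase genes Pole and Pold1, Atad2, Clspn and Chaf1b. Dnmt1 stood at 111, 139 and 65.9 CPM in GFPneg and 230, 252 and 244 CPM in GFPpos cells, without overlap (log2 fold change 1.20, SE 0.42, adjusted p = 0.678). Pole stood at 9.84, 29.5 and 10.1 CPM against 45.4, 60.3 and 50.8 CPM, also without overlap. Chaf1b, the partner subunit of Chaf1a, was the 1 of these 6 in the other direction, at 174, 12.2 and 15.2 CPM against 15.5, 15.3 and 12.1 CPM. In replicate 2 it was higher in GFPpos cells. Its highest value came from 53 counts in GFPneg replicate 1. In the 2-pair fit with the block 7 of the 64 were higher (2.52% of 15346 genes tested were), namely Dnmt1, Pole, Pold1, Atad2, Clspn, Ticrr and Topbp1.

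Mitotic genes and G1 regulators were set beside the replication genes. Of 30 mitotic genes 29 had positive log2 fold changes (57.5% of all genes tested did), with a median of 2.00 against 1.18 for the replication members. The difference between the lists was not tested. The summed mitotic level was 269, 1118 and 245 CPM in GFPneg and 2798, 2744 and 1594 CPM in GFPpos replicates 1, 2 and 3, and did not overlap. With the replicate block 4 mitotic genes rose (Mki67, Top2a, Cenpe and Cenpf), against 0 members and 0.31% of all genes tested. In the 2-pair fit with the block 21 of the 30 mitotic genes rose and 0 fell, against 6 of 31 members. Over all genes tested in that fit, 2.52% rose and 1.41% fell. Of 21 G1 cyclin, RB family and E2F genes, 17 were positive with a median of 0.41. In edgeR's test with the 6 libraries 1 of them rose (0.0577% of all genes tested did). That gene, Ccnd1 for cyclin D1, acts upstream of the E2F genes, and stood at 72.1, 61.2 and 27.1 CPM in GFPneg and 417, 472 and 439 CPM in GFPpos cells (log2 fold change 3.09, SE 0.46, adjusted p = 0.0181).

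**Figure D4:**
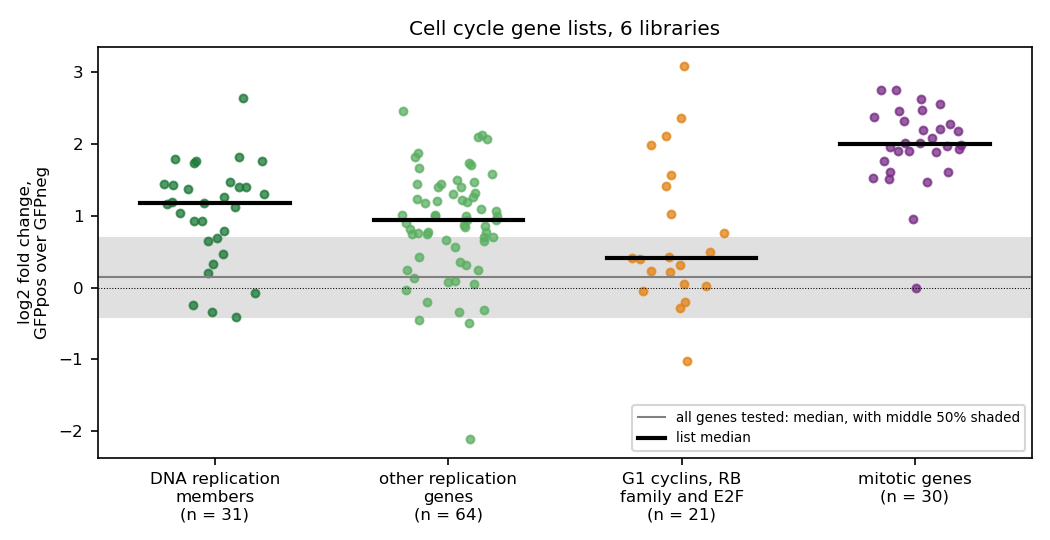
Log2 fold change (GFPpos over GFPneg, 6 libraries, vertical axis) of each gene in 4 cell cycle lists. Points are genes, black bars are list medians, and the grey line and band give the median and middle 50% of all 13873 genes tested. The median of the 31 DNA replication genes is 1.18, that of the 30 mitotic genes 2.00 and that of all genes 0.15.

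Markers of basal cells and of other cell types were also set side by side between the groups, and the lists were not tested. Basal epithelial markers summed to 8958 to 14839 CPM in GFPneg and 7366 to 8528 CPM in GFPpos libraries, and 11 of 12 had negative log2 fold changes. Luminal markers summed to 272, 578 and 562 CPM in GFPneg and 1049, 888 and 667 CPM in GFPpos replicates 1, 2 and 3, with 13 of 16 positive. By pair, 15, 11 and 7 of the 16 luminal markers were higher in GFPpos cells in replicates 1, 2 and 3. The defining luminal genes Krt8, Krt18 and Epcam were higher in GFPpos cells of replicates 1 and 2 and lower in replicate 3, where Krt8 stood at 109 against 100.3 CPM, Krt18 at 108 against 92.6 CPM and Epcam at 263 against 202 CPM. Pericyte markers summed to 59.0, 176 and 231 CPM in GFPneg and 433, 294 and 844 CPM in GFPpos cells, with 6 of 7 tested positive. By pair, 6, 5 and 6 of these 7 were higher in GFPpos cells in replicates 1, 2 and 3. The 2 that were not higher in replicate 2 were the defining genes Rgs5 (27.2 against 23.7 CPM) and Pdgfrb (12.8 against 7.55 CPM), and both were at 0 in GFPneg replicate 1.

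Endothelial markers summed to 1872, 1214 and 919 CPM in GFPneg and 1121, 1010 and 2836 CPM in GFPpos replicates 1, 2 and 3. These sums overlapped, and 7 of 12 markers were positive (57.5% of all genes tested were). By pair, 4, 5 and 11 of the 12 endothelial markers were higher in GFPpos cells in replicates 1, 2 and 3. Fibroblast markers summed to 777 to 1703 CPM in GFPneg and 346 to 443 CPM in GFPpos libraries, with 6 of 7 tested negative. Schwann cell markers summed to 208 to 889 CPM and 124 to 207 CPM, with 4 of 6 tested negative, and the defining gene Sox10 was at 0 in GFPneg replicate 1. Immune markers summed to no more than 24.8 CPM in any library, and Ptprc was at 0 in all GFPneg libraries. The part of any of these cell types in the replication result was not tested.

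Counting adds uncertainty for some members, because the strand setting is not given in the sources used here. In GENCODE M21, 9 members share exonic bases with a gene on the opposite strand (Mcm7, Cdc45, Gins2, Rfc4, Fen1, Tk1, Ccne2, Slbp and Chaf1a), and Mcm7 also holds Mir25 and Mir93 on its own strand. Reads of such pairs could not be told apart if strand was not used. Pcna and Tyms have annotated pseudogenes that carry their symbols (Pcna-ps1, Pcna-ps2 and Tyms-ps), and their counts are uncertain if reads were split between copies. Of the 6 members called in the 2-pair fit, none is on either list. Pseudogenes under other symbols were not searched, so their absence from the second list does not exclude such copies.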

How the data were processed

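Each of the 6 libraries has a table of raw counts by gene symbol, as the authors deposited it. The submitters' processing notes list HTSeq, TopHat2, cutadapt and FastQC and the build mm10. Tool versions, the counting mode and the annotation used were not given in the sources used here. The counter's summary rows entered neither library sizes nor tests (no feature 28.8% to 66.4%, ambiguous 0.390% to 2.07% of all rows).

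The test was the quasi-likelihood one of edgeR 4.0.16 (R 4.3.3) with TMM scaling, genes kept by filterByExpr on the groups, and no block, with Benjamini-Hochberg adjustment over all genes tested and a threshold of 0.05. CPM used TMM effective library sizes, on which 1 count equals 3.28 CPM in GFPneg replicate 1 and 0.0513 to 0.0911 CPM elsewhere. The SE is the unshrunk log2 fold change divided by the square root of F. Within-pair ratios have exact 95% intervals. Alternatives were a replicate block, DESeq2 1.42.0, limma-voom (limma 3.58.1), other scaling and filters, and left-out libraries. The scripts were tested on simulated data.

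The number pairs the samples, since the design text states that both fractions came from the same pool. The correlation of same-numbered libraries' deviations from their group means was -0.036 (replicate 1), 0.122 (replicate 2) and -0.0013 (replicate 3). Each library is a sorted fraction of a pool of mice. Without the block, p-values measure the spread between libraries of a group and treat both fractions of a pool as independent. With the block, they measure the spread of the within-pool difference. Positions, exon lengths and overlaps came from GENCODE M21 and promoter windows from RefSeq, both on GRCm38. All 31 members are named, with the 6 other replication genes of smallest p and cell cycle genes past the threshold with or without the block. Of the defining cell type markers only some are named, and Acta2, Pecam1, Cdh5, Col1a1 and Pdgfra are not reported here. The members, lists and settings were chosen with earlier results of these data known.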

Additional observations from a re-analysis of the deposited data

How the results depend on the processing

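Over 17 alternatives, 27 to 29 of the 31 members had positive log2 fold changes, with medians of 0.94 to 1.67, and 25 members kept their sign in each. Genes called higher and lower over all genes were 8 and 1 with the 6 libraries. They were 43 and 18 with the replicate block, 386 and 216 with the replicate block and without both libraries of replicate 1, 50 and 48 with DESeq2, 91 and 61 with DESeq2 and the block, 54 and 24 with limma-voom, 5 and 1 with library size only, and 65 and 236 with no low count filter. Leaving out libraries or pairs gave 2 to 63 higher and 1 to 68 lower. Members and other replication genes called higher were 0 in each alternative except the replicate block without replicate 1 (6 and 7). Library size only moved the median of all genes from 0.15 to 0.31 and that of the members from 1.18 to 1.30.

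The log2 fold change of Pola1 was 0.39 with the block, 1.28 with the block without replicate 1, 0.36 with DESeq2 and the block, 0.97 with limma-voom and 0.45 with library size only, and -0.85 to 1.18 with libraries or pairs left out. For E2f1 it was 0.74 with the block without replicate 1, 0.37 with limma-voom and 0.23 with library size only (-1.38 to 0.92 with libraries or pairs left out). For Ccne1 it was 0.048 with the block and 0.11 with DESeq2 and the block (-1.05 to 0.90). For Cdc6 it was -0.16 with limma-voom (-0.56 to 0.81), for Rfc3 -0.30 with the block without replicate 1 (-0.32 to 1.57), and for Pcna -0.11 to 0.56 with libraries or pairs left out. The causes were not tested. The depth of GFPneg replicate 1 limits members below 9.84 CPM.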

Other observations

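Genes next to the replication machinery, chosen after their values were seen, differed in direction. Ccnd2, which encodes cyclin D2, stood at 193, 167 and 126 CPM in GFPneg and 55.1, 57.7 and 126 CPM in GFPpos replicates 1, 2 and 3, so that it was lower in GFPpos cells of replicates 1 and 2 and equal in replicate 3 (log2 fold change -1.02, SE 0.46, adjusted p = 0.921 in edgeR's test). E2f7, an E2F repressor, stood at 3.28, 13.4 and 3.92 CPM against 40.1, 31.4 and 27.0 CPM, without overlap (log2 fold change 2.11, SE 0.78, adjusted p = 0.744). Rbl1, a member of the RB family, stood at 0, 20.8 and 6.20 CPM against 58.9, 29.4 and 38.2 CPM, also without overlap (log2 fold change 1.99, SE 0.82, adjusted p = 0.843).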
